A study of Arabidopsis thaliana with 21 samples.

Results

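The chloroplast genome of Arabidopsis thaliana carries genes for photosystem, cytochrome b6f, ATP synthase, ribosome and RNA polymerase subunits and for tRNAs, beside the genes of the NDH complex, which were left out here. The members were every row of the deposited table whose ID starts with ATCG, without the 10 NDH rows, and with a mean of at least 1 normalized count over the libraries. A normalized count is the number of reads on a gene divided by a size factor of its library. Of 102 such rows in a table of 25263 genes, 92 were not NDH rows and 82 of these reached the minimum. The member with the lowest mean stood at 1.13 and the highest of the 10 rows left out at 0.923, so the least abundant genes of the genome were not described.

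RNA came from untreated seedlings 10 days old, all of the Col-0 background, grown on agar at 20 °C with 16 h of light and 8 h of darkness. In 6 lines a full-length cDNA of AtIPCS1, AtIPCS2 or AtIPCS3, the isoforms of inositol phosphorylceramide synthase, had been added with the pK7WG2 vector by floral dipping. Each isoform had a line labelled ++ and a line labelled +, giving the groups At1++, At1+, At2++, At2+, At3++ and At3+, and the parent Col-0 carried no added cDNA. Each group had 3 labelled replicates, but each line descends from 1 transformation and the study calls its replicates technical, so p-values measure only the spread between these samples. Replicates 1 and 2 labelled At3+ held identical values in every gene and entered as a single sample, so that 20 libraries remained, with n = 2 for At3+ and n = 3 elsewhere.

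Chloroplast genes are read by a plastid-encoded polymerase and by nuclear-encoded ones, mostly as long transcripts over several neighbouring genes that are then cut and processed. Their products are the core subunits of complexes whose other subunits are made from nuclear genes and imported. Most chloroplast RNA carries no stable poly(A) tail, and these libraries were made with a kit for poly(A)-selected mRNA. The values therefore describe the chloroplast RNA that this selection retained, not its total amount, and in whole seedlings fewer green cells and less RNA per cell cannot be told apart.

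The sources used here pair 17 of the 82 IDs with a gene or product, 13 of them named by the study and 4 by RefSeq notes. The 13 were named by the study from these same libraries, so their direction is not independent evidence. By these sources the annotated members were 5 of photosystem II, 4 of photosystem I or its assembly, 3 of the cytochrome b6f complex, and others of the ribosome, of further functions or of no named complex. The other 65 are described by counts and ranges, and ATP synthase, polymerase and tRNA genes could not be told apart among them.

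The libraries held 12733113 to 17210244 reads on genes. In every library markers of green tissue and of root were both present, as seedlings would have. AtIPCS1 averaged 45370.1 normalized counts in At1++, against 17726 in At1+ and 172 in Col-0. AtIPCS2 went against its labels, with 12630.5 normalized counts in the libraries labelled At2++ and 22612 in those labelled At2+, against 823 in Col-0. AtIPCS3 likewise averaged 5802 in the At3++ libraries and 11933 in the At3+ libraries, against 57.7 in Col-0. By the study's qPCR each isoform had more transcript in its ++ line than in its + line. The study's own listing of expressed genes per library, set beside the genes with a read in each library here, fits for AtIPCS2 and AtIPCS3 only with + and ++ exchanged. Every member in the study's list of photosynthesis genes rose more in At2++ than in At2+ there, the reverse of their order here. That list has the same members higher in At3++ and blank in At3+, the order found here. For AtIPCS3 the study's listings are therefore at odds. For AtIPCS2 the qPCR, the expressed genes and the photosynthesis list all fit the deposited libraries only with + and ++ exchanged. The names At2+ and At2++ here thus stand for the study's At2++ and At2+. For AtIPCS3 an exchange of the labels and a true difference from them cannot be told apart here. All groups follow the deposited labels.

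Chloroplast RNA took a larger share of the reads in 5 of the 6 lines than in Col-0. The 82 members took 0.28%, 0.2% and 0.197% of the reads on genes in At1++ and 0.106%, 0.14% and 0.195% in At1+. They took 0.268%, 0.279% and 0.325% in the libraries labelled At2++ and 0.913%, 0.384% and 0.526% in those labelled At2+. They took 0.227%, 0.189% and 0.183% in the At3++ libraries, while the At3+ libraries had 0.0681% and 0.0489%, against 0.0327%, 0.0671% and 0.0322% in Col-0. Only the At3+ libraries overlapped with Col-0. Replicate 1 of At2+ and replicate 2 of Col-0 stood apart from the other libraries of their groups, with 76 and 61 of the 82 members at their group's highest value in them.

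**Figure D1:**
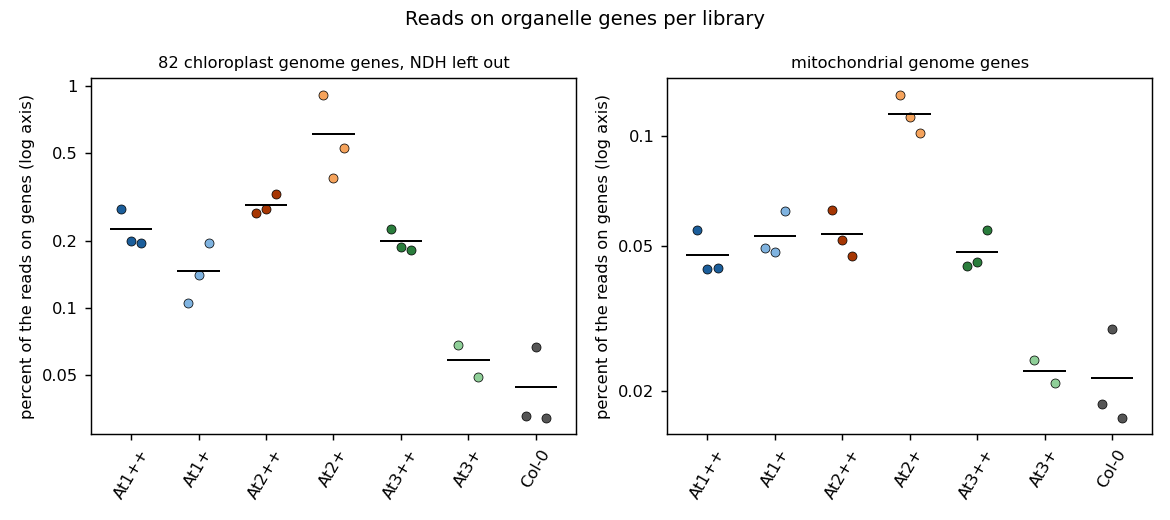
Percent of the reads on genes that fell on the 82 chloroplast genes (left) and on mitochondrial genome genes (right) in each library, on log axes, with bars at the group means. At2+ has the highest chloroplast share, from 0.384% to 0.913%, and the 2 libraries of At3+ lie within reach of Col-0.

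The mean share was 13.8 times that of Col-0 for At2+, 6.61 times for At2++, 5.13 times for At1++, 4.54 times for At3++, 3.34 times for At1+ and 1.33 times for At3+. In that order At2+ lay above At2++ in every library. The ranges of At2++ and At1++, of At1++ and At3++, of At3++ and At1+, and of At3+ and Col-0 overlapped. An exact two-sided permutation test gave p = 0.1 (adjusted p = 0.12 over 6 tests) for each line but At3+, the smallest value that 3 libraries against 3 allow. For At3+ the exact permutation test gave p = 0.4 (adjusted p = 0.4), where 0.2 is the smallest. Mitochondrial genome genes, which are no members, took 0.0431% to 0.13% of the reads in the lines other than At3+, against 0.0169% to 0.0296% in Col-0, so the share of another organelle's RNA moved in the same direction and its part in the result was not tested.

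Gene by gene, the increase reached most of the members in 5 lines. A gene was called where limma, fitted over 22222 genes with 7 groups on log2(normalized count + 1), gave an adjusted p under 0.05 and a log2 fold change of at least 1 in either direction. In At1++ 66 of 82 members were called higher and 0 lower (67 and 0 at an unadjusted p under 0.05), where 4.06% of all genes were called higher and 5.02% lower. In At1+ 53 were called higher and 1 lower, where 1.78% of all genes were called higher and 1.96% lower. The median log2 fold change of the members was 2.21 in At1++ and 1.60 in At1+, and that of all genes tested lay between -0.02 and 0.01 in every line.

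In the libraries labelled At2++ 72 members were called higher and 0 lower (72 and 0 at an unadjusted p under 0.05), where 5.9% of all genes were called higher and 4.91% lower. In those labelled At2+ 80 were called higher and 0 lower (81 and 0 at an unadjusted p under 0.05), where 4.76% were called higher and 2.69% lower. With edgeR and DESeq2 the number called lower was also 0 in At1++, At2++ and At2+. The members' medians were 2.76 in At2++ and 3.94 in At2+. The largest share of members called was thus in the line with the most AtIPCS2 transcript, which carries the label At2+.

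In the libraries labelled At3++ 64 members were called higher and 1 lower, with a median of 2.1, where 4.04% of all genes were called higher and 2.31% lower. The member called lower, ATCG00010, was named after its value was seen, had 0 to 5.10 normalized counts in At3++ and 2.80 to 8.78 in Col-0. It was not called with edgeR or DESeq2, nor without replicate 2 or 3 of At3++ or replicate 1 or 3 of Col-0. In those labelled At3+ 9 members were called higher and 1 lower, with a median of 0.34, where 0.594% of all genes were called higher and 1.18% lower. That count did not hold: edgeR called 0 higher (6 at an unadjusted p under 0.05) and DESeq2 5, and leaving out single libraries gave 1, without At3+ replicate 1, to 15, without Col-0 replicate 2, and 4 without Col-0 replicate 3. With an At3+ library left out, 1 sample remains in that group and is assumed to vary like the samples of the others. All 6 comparisons share the same Col-0 libraries, so their values stand side by side and are not independent of each other.

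**Figure D2:**
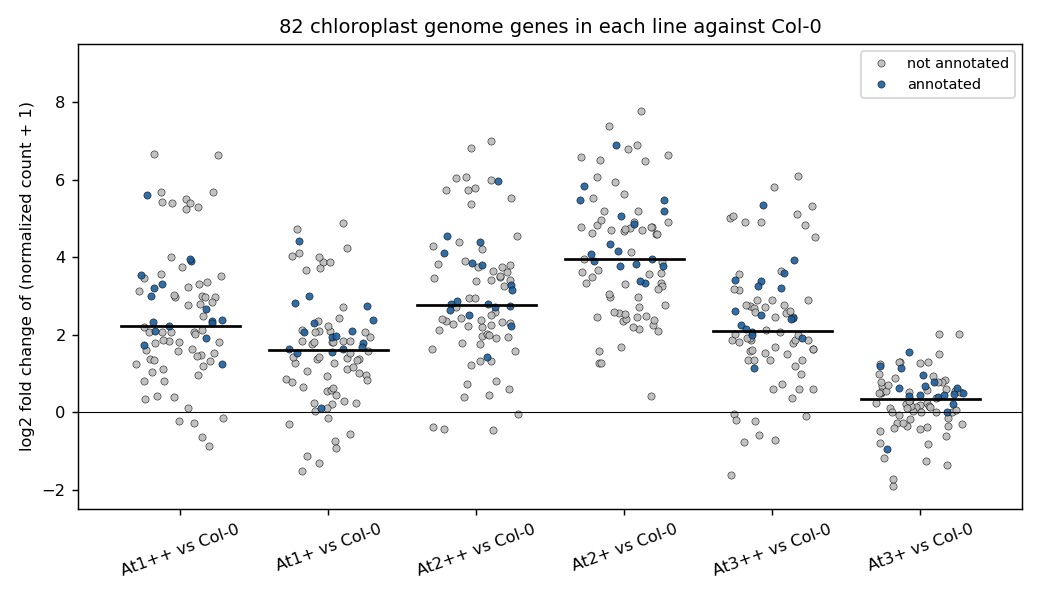
Log2 fold change of (normalized count + 1) of each of the 82 members in each line against Col-0, with bars at the medians and a colour for annotated members. The medians are 2.21, 1.60, 2.76, 3.94 and 2.1 in At1++, At1+, At2++, At2+ and At3++, and 0.34 in At3+.

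Across lines, 51 members were called higher in all 5 lines other than At3+. The 9 called in all 6 lines were the 9 called in At3+, a count that did not hold, since edgeR called 0 there. The share of all genes called in the same lines is not given here. Only 2 members were called higher in no line, and 2 were called lower in at least 1. The group mean was highest in At2+ for 81 of the 82 members and lowest in Col-0 for 54 and in At3+ for 24. The median of a member's 6 log2 fold changes ranged between -0.81 and 6.37, with a median of 2.19 over members, and it was above 0 for all but 5 members. Members with a mean under 20 normalized counts were fewer among those called: 7 of 16 in At1++, against 59 of 66 of the more abundant, and 1 of 16 in At1+, against 52 of 66.

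Photosystem II is the complex that splits water, and its 5 annotated members were called higher in every line but At3+. There all 5 differences were above 0 but mostly not called. psbD (ATCG00270), which encodes the D2 reaction centre protein, had 1098, 723 and 699 normalized counts in the libraries labelled At1++, 628, 633 and 920.5 in At1+, 1007, 1375 and 1419.7 in those labelled At2++, 5856, 1863 and 2545 in At2+, 1022, 948 and 899 in those labelled At3++, 220.0 and 189 in At3+, and 59.3, 153 and 77.3 in Col-0. Every library of the 5 lines other than At3+ lay above every Col-0 library, and both At3+ libraries did so too. The log2 fold change was 3.19 ± 0.30 (SE) for At1++, 2.99 ± 0.30 for At1+, 3.80 ± 0.30 for At2++, 5.07 ± 0.30 for At2+, 3.41 ± 0.30 for At3++ and 1.19 ± 0.33 for At3+. The limma adjusted p was 1.51e-09 in At3++ and 0.0222 in At3+, and the At3+ call was lost with edgeR, DESeq2 and no filter, and without either At3+ library or Col-0 replicate 1 or 3.

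psbC (ATCG00280), whose product is the antenna protein CP43, lies next to psbD in the RefSeq annotation of TAIR10.1, and its fold changes were smaller. Against Col-0 its log2 fold changes were 2.34 for At1++, 2.31 for At1+, 2.86 for At2++, 4.17 for At2+, 2.60 for At3++ and 0.66 for At3+. psbB (ATCG00680), whose product is the other core antenna CP47, had 1062, 666 and 641 normalized counts in the libraries labelled At1++, 612, 592 and 862 in At1+, 1050.4, 1009 and 1220.0 in those labelled At2++, 3576, 1904 and 2175 in At2+, 925, 843 and 886 in those labelled At3++, 331 and 302 in At3+, and 202, 353 and 176 in Col-0. Its log2 fold changes against Col-0, 1.72, 1.54, 2.22, 3.39, 1.92 and 0.44 in At1++, At1+, At2++, At2+, At3++ and At3+, were lower than those of psbD in each line. One Col-0 library, at 353, lay above both libraries of At3+.

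psbZ (ATCG00300), a small subunit, had 724, 220.2 and 323 normalized counts in the libraries labelled At2+, against 10.2, 12.2 and 6.15 in Col-0. Its log2 fold changes ran from 0.63 in At3+ to 5.20 in At2+. The cytochrome b559 gene (ATCG00580), which encodes a subunit that binds haem, ran from 0.63 in At3+ to 3.34 in At2+. In At3+, psbD alone of the 5 was called.

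**Figure D3:**
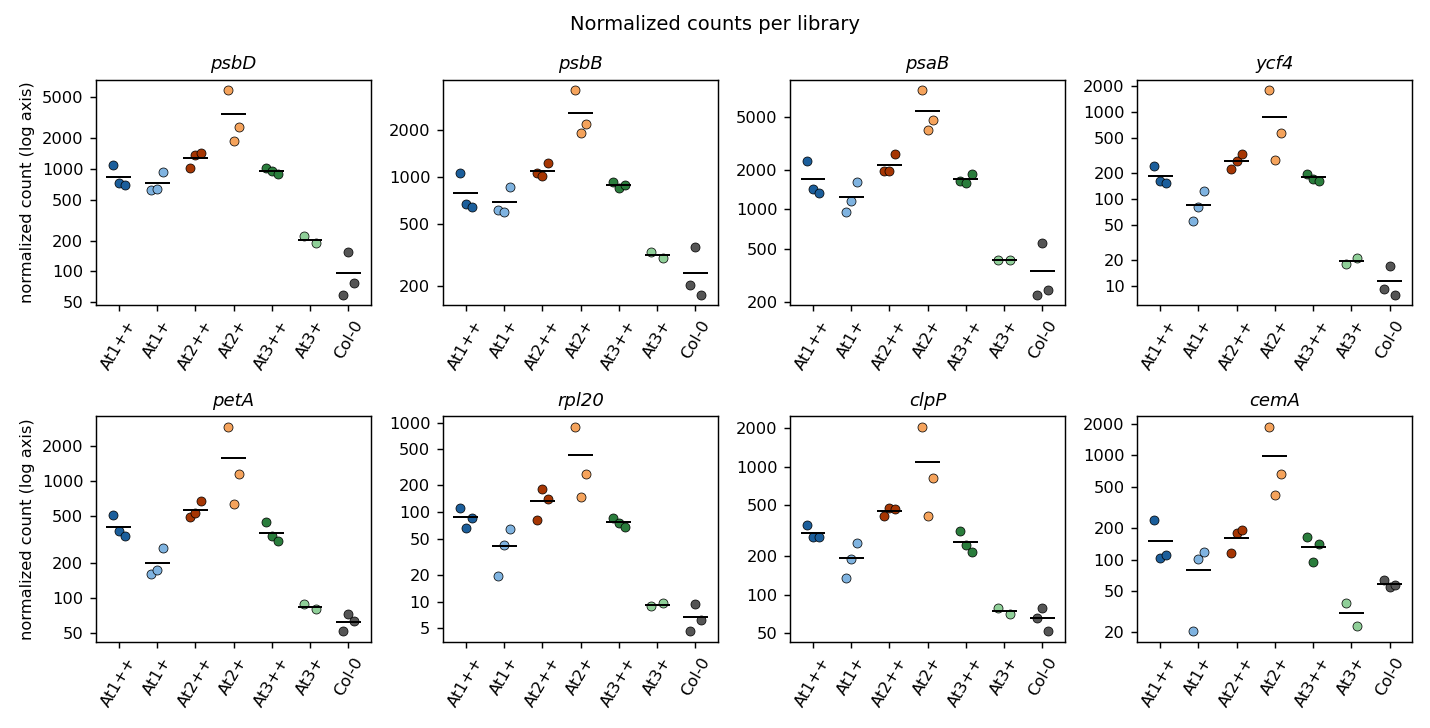
Normalized counts of 8 annotated members in every library, on log axes, with bars at the group means. Each gene has its highest group mean in At2+, and both At3+ libraries lie above all Col-0 libraries for psbD, ycf4 and petA and below them for cemA.

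Photosystem I passes electrons on to ferredoxin, and its 2 annotated subunits and 2 assembly factors were called higher in every line but At3+, where none of the 4 was called. psaB (ATCG00340), which encodes a subunit of the reaction centre core, had 2324, 1417 and 1338 normalized counts in the libraries labelled At1++, 962, 1159 and 1612 in At1+, 1949, 1949 and 2649 in those labelled At2++, 8051, 4036 and 4751 in At2+, 1645, 1587 and 1847 in those labelled At3++, 411 and 415 in At3+, and 225, 558 and 246 in Col-0. Its log2 fold changes were 2.38 ± 0.26 for At1++, 1.95 ± 0.26 for At1+, 2.78 ± 0.26 for At2++, 4.09 ± 0.26 for At2+, 2.42 ± 0.26 for At3++ and 0.39 ± 0.29 for At3+. The At3+ values, 411 and 415, fell between the Col-0 values.

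psaC (ATCG01060), the subunit that carries the terminal iron-sulfur clusters, had 180.3, 135 and 132 normalized counts in At1++ and 66.2, 50.7 and 74.5 in At1+, against 8.34, 24.3 and 13.2 in Col-0. Its log2 fold changes were 3.31 for At1++, 2.1 for At1+, 3.84 for At2++, 4.87 for At2+ and 3.25 for At3++. In At3+ it was 0.95 (limma adjusted p = 0.116), and it passed the call there, at 1.33, when Col-0 replicate 2 was left out.

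The assembly factor genes changed more than the subunit gene psaB. ycf4 (ATCG00520) had 242, 161 and 153 normalized counts in the libraries labelled At1++, 56.4, 80.5 and 123 in At1+, 221, 273 and 335 in those labelled At2++, 1811, 284 and 574 in At2+, 197, 173 and 163 in those labelled At3++, 17.8 and 20.8 in At3+, and 9.27, 16.8 and 7.90 in Col-0. Its log2 fold changes, 3.95 ± 0.39 for At1++, 2.82 ± 0.39 for At1+, 4.54 ± 0.39 for At2++, 5.82 ± 0.39 for At2+ and 3.92 ± 0.39 for At3++, ranked 12th of the 82 members by their median over lines. ycf3 (ATCG00360) had log2 fold changes of 3.91 for At1++, 2.74 for At1+, 4.40 for At2++, 5.48 for At2+, 3.60 for At3++ and 1.15 for At3+, the last with a limma adjusted p of 0.0743.

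The cytochrome b6f complex links the photosystems, and its 3 annotated members were called higher in every line but At3+. petA (ATCG00540), which encodes cytochrome f, had 509.9, 370.4 and 337 normalized counts in the libraries labelled At1++, 162, 174 and 265 in At1+, 488, 530.3 and 679 in those labelled At2++, 2909, 639 and 1136 in At2+, 445, 336 and 307 in those labelled At3++, 88.2 and 80.7 in At3+, and 51.9, 72.9 and 63.2 in Col-0. All libraries of the lines, At3+ included, lay above the highest Col-0 library, at 72.9, but the At3+ difference of 0.44 was not called (limma adjusted p = 0.531). Its other log2 fold changes were 2.67 for At1++, 1.64 for At1+, 3.15 for At2++, 4.35 for At2+ and 2.51 for At3++.

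petB (ATCG00720), for cytochrome b6, and petD (ATCG00730), for subunit IV, are neighbours in TAIR10.1 and had similar fold changes. petB had log2 fold changes of 2.1 for At1++, 1.63 for At1+, 2.49 for At2++, 3.95 for At2+ and 2.15 for At3++. In At3+ its difference was 0.01 (limma adjusted p = 0.991), with 95.3 and 83.1 normalized counts in At3+, against 86.2, 132 and 60.6 in Col-0, and its sign changed under 6 alternatives. petD had 2.30 for At1++, 1.97 for At1+, 2.72 for At2++, 3.89 for At2+, 2.40 for At3++ and 0.49 for At3+ on the same log2 scale.

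Among genes of the chloroplast ribosome, rpl20 (ATCG00660), for a protein of the large subunit, had 109.6, 66.5 and 86.5 normalized counts in At1++, 19.5, 43.0 and 63.9 in At1+, 81.7, 179 and 140.1 in the libraries labelled At2++ and 899.6, 146 and 269 in At2+, against 4.64, 9.35 and 6.15 in Col-0. Its log2 fold changes were 3.54, 2.38, 4.10 and 5.46 in these lines and 3.37 in At3++. Counts in Col-0 were low, and At3+, with 8.91 and 9.59, was not called.

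The highest fold changes were found among members that no source used here annotates. ATCG00820 had 576, 433 and 549 normalized counts in the libraries labelled At1++, 78.8, 159.9 and 273 in At1+, 520.2, 686 and 799 in those labelled At2++, 1729, 627 and 1309.7 in At2+, 459, 378 and 243 in those labelled At3++, 21.4 and 18.4 in At3+, and 2.78, 5.61 and 4.39 in Col-0. It had the highest fold changes of all members in every line, at 6.65, 4.89, 7.01, 7.78, 6.09 and 2.02 on the log2 scale in At1++, At1+, At2++, At2+, At3++ and At3+. Its lowest Col-0 library held 3 reads, so these sizes are imprecise. ATCG01130 had 2406, 1618 and 1643 normalized counts in the libraries labelled At1++, 135, 814 and 1055 in At1+, 1564, 2375 and 2453 in those labelled At2++, 3411, 2392 and 3740.0 in At2+, 1392, 994 and 810.2 in those labelled At3++, 90.8 and 60.7 in At3+, and 20.4, 23.4 and 11.4 in Col-0. Here too no line overlapped with Col-0. In log2 terms it changed by 6.64, 4.71, 6.81, 7.39, 5.80 and 2.01 in the same order of lines. By the median over lines 11 members stood at 4.87 or above, and the next member, ycf4, stood at 3.93.

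Classes of annotated members were compared as shares of the members' reads, in 36 tests over 6 classes and 6 lines, and the classes of the photosystems and of cytochrome b6f are given here. The 5 photosystem II genes took 9.42% for At1++, 13.5% for At1+, 9.67% for At2++, 11.8% for At2+, 11.9% for At3++ and 12.2% for At3+, against 10.8% in Col-0. The mean share of these 5 genes was thus lower in At1++ and At2++ and higher in the other lines, with exact two-sided permutation p values from 0.1 to 0.4. Members without annotation may include further photosystem II genes, so this is not the share of the whole complex. Only At1+, at 12.1% to 16.3%, and At2++, at 9.27% to 10.1%, did not overlap with Col-0, at 10.5% to 11.5%. The 2 most abundant members took 9.14% to 49.2% of the members' reads in single libraries and are part of the denominator of every share. Their mean was 38.1% in Col-0 and 40.6% in At3+, but 13.7% in At1++ to 28.7% in At1+ over the other lines. A class share can therefore rise because these 2 members take less. For the photosystem I genes the means ranged between 6.10% for At3+ and 7.76% for At2+, against 6.20% in Col-0, and for cytochrome b6f between 3.21% for At2++ and 4.02% for At2+, against 3.82% in Col-0. None of the 36 permutation tests had an adjusted p under 0.05. This design could not reach that, since no p could fall below 0.1, or below 0.2 for At3+. The smallest adjusted p found was 0.257, and 16 tests stood at the smallest p allowed.

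**Figure D4:**
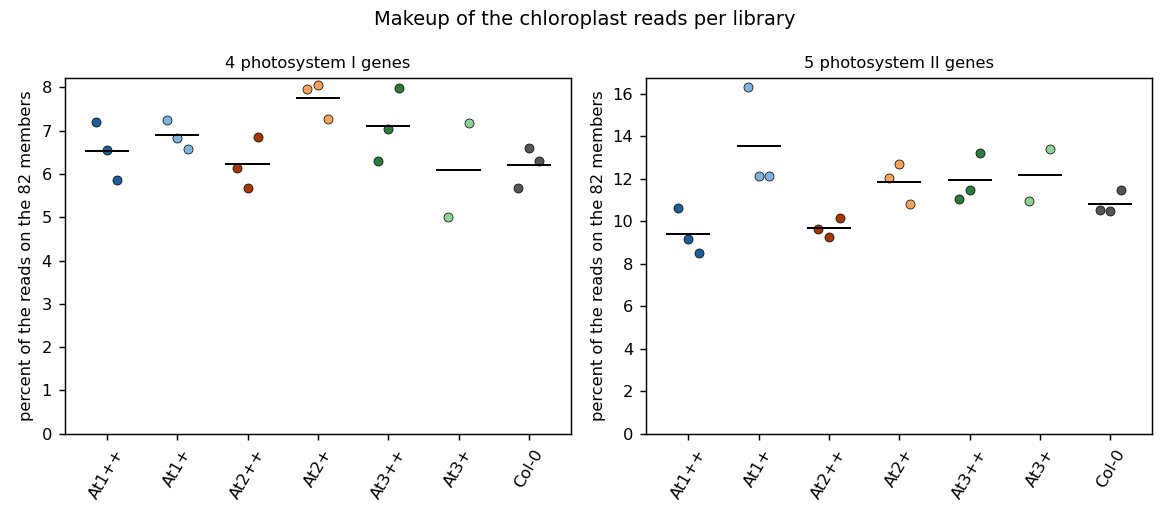
Percent of the reads on the 82 members that fell on the 4 annotated photosystem I genes (left) and on the 5 annotated photosystem II genes (right) in each library, with bars at the group means and axes from 0. The mean of these 5 photosystem II genes is 9.42% in At1++ and 13.5% in At1+, on either side of 10.8% in Col-0, and the At1++ libraries reach into the Col-0 range.

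The remaining annotated members have varied functions. clpP (ATCG00670), for the proteolytic subunit of a stromal protease, had 350.3, 282 and 286 normalized counts in the libraries labelled At1++, 136, 191 and 254 in At1+, 413, 481 and 471 in those labelled At2++, 2067, 417 and 819.7 in At2+, 317, 247 and 217 in those labelled At3++, 78.4 and 70.3 in At3+, and 65.8, 78.5 and 51.8 in Col-0. The log2 fold changes of clpP were 2.22 ± 0.32 for At1++, 1.53 ± 0.32 for At1+, 2.80 ± 0.32 for At2++, 3.77 ± 0.32 for At2+, 1.98 ± 0.32 for At3++ and 0.20 ± 0.36 for At3+. The gene of a small phosphoprotein (ATCG00710) is listed by the study under photosynthesis with no complex named, so it was not counted with photosystem II here. Its log2 fold changes were 2.32, 1.68, 2.63, 3.83, 2.24 and 0.41 in At1++, At1+, At2++, At2+, At3++ and At3+, and At3+ alone was not called.

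cemA had the lowest fold change of the annotated members in every line other than At2+, and in At3+ it was below 0. cemA (ATCG00530), for an envelope membrane protein that RefSeq notes liken to a proton extrusion protein, had 241, 103 and 109.8 normalized counts in the libraries labelled At1++, 20.4, 101 and 117 in At1+, 115, 179 and 192 in those labelled At2++, 1891, 417 and 664 in At2+, 163, 94.2 and 141 in those labelled At3++, 38.3 and 23.2 in At3+, and 64.0, 55.1 and 57.1 in Col-0. Its Col-0 libraries agreed closely, and At3+ lay below all of them. The log2 fold change was 1.24 ± 0.48 for At1++ (limma adjusted p = 0.0422), 0.10 ± 0.48 for At1+ (0.908), 1.42 ± 0.48 for At2++ (0.0155), 3.76 ± 0.48 for At2+ (5.94e-07), 1.13 ± 0.48 for At3++ (0.064) and -0.95 ± 0.53 for At3+ (0.325). The call in At1++ was lost with DESeq2, with no filter, with the replicate block, and without At1++ replicate 1 or any 1 of the Col-0 libraries, and the call in At2++ without At2++ replicate 3. In TAIR10.1 cemA lies between ycf4 and petA, which were called higher in every line but At3+.

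Few members ran against the rest. The median log2 fold change over lines was below 0 for 5 of the 82. ATCG01020 had 122, 64.1 and 49.6 normalized counts in the libraries labelled At1++, 14.6, 72.8 and 56.1 in At1+, 62.8, 99.0 and 108 in those labelled At2++, 419, 176 and 294 in At2+, 97.9, 45.0 and 75.5 in those labelled At3++, 33.8 and 34.4 in At3+, and 122, 105 and 117 in Col-0. It was called lower in At1+ (-1.52 ± 0.40, limma adjusted p = 0.00602) and At3+ (-1.72 ± 0.45, 0.0149) and higher in At2+ (1.28 ± 0.40, 0.012), and was called in neither direction in the other lines. No member was called lower in At1+ without At1+ replicate 1, or in At3+ without At3+ replicate 3.

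The ++ line was set against the + line of the same isoform, comparisons that share no library with each other. In At1++ against At1+, where AtIPCS1 transcript followed the labels, 38 members were called higher and 0 lower (50 and 1 at an unadjusted p under 0.05), where 5.63% of all genes were called higher and 5.44% lower. The median log2 fold change was 1.04. edgeR called 30 higher and DESeq2 31, both with 0 lower, and the count was 19 without At1+ replicate 1 and 25 without At1++ replicate 1. psaC was 1.22 ± 0.33 higher (limma adjusted p = 0.0034), ycf3 1.16 ± 0.36 (0.00866), rpl20 1.16 ± 0.44 (0.0298), ycf4 1.13 ± 0.39 (0.0198) and petA 1.03 ± 0.31 (0.00766). None of the 5 photosystem II genes was called, with psbC at 0.03 and psbZ at 0.91 as the lowest and highest. Of these 5 calls, psaC alone held without At1+ replicate 1.

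In the libraries labelled At2++ against those labelled At2+, where AtIPCS2 transcript was lower in At2++, 0 members were called higher (0 at an unadjusted p under 0.05) and 40 lower, where 1.11% of all genes were called higher and 2.57% lower. edgeR called 0 higher and 53 lower, and DESeq2 0 and 47. The median log2 fold change was -1.12, and 81 of the 82 values were below 0. psbZ was at -1.91 ± 0.42 (limma adjusted p = 0.00167), cemA at -2.34 ± 0.48 (0.000916), petB at -1.45 ± 0.27 (0.000315) and psaB at -1.31 ± 0.26 (0.000716). The count rested in large part on 1 library: without At2+ replicate 1 it was 10, and 21 without At2++ replicate 1, and of the 14 annotated members called these 4 remained without At2+ replicate 1.

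In the At3++ libraries against the At3+ libraries, where AtIPCS3 transcript was lower in At3++, 64 members were called higher and 0 lower (70 and 0 at an unadjusted p under 0.05), where 2.94% of all genes were called higher and 0.774% lower. edgeR called 56 higher and DESeq2 60, both with 0 lower, and the median log2 fold change was 1.96. All 17 annotated members were called higher. ycf4 was 3.14 ± 0.44 higher (limma adjusted p = 7.71e-06), rpl20 2.92 ± 0.49 (7.72e-05), psbD 2.22 ± 0.33 (1.71e-05) and cytochrome b559 1.45 ± 0.32 (0.00146). So the members' median had the direction of the added gene's transcript in the AtIPCS1 and AtIPCS2 pairs and the opposite direction in the AtIPCS3 pair. Each level is 1 line, so the transcript level and other differences between lines cannot be told apart.

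The difference between the paired lines was also compared between isoforms, as contrasts of the same limma fit that were added after the data were seen. What these contrasts gave depended on whether the pairs were read by their labels or by the measured transcript. With the line that held more of the added transcript set against the line that held less, AtIPCS1 minus AtIPCS2 had a median of -0.14 over the members, with 4 called higher and 9 lower (7 and 13 at an unadjusted p under 0.05), where 8.55% of all genes were called higher and 7.93% lower. psbD was among the 9, at -1.07 ± 0.42 (SE; limma adjusted p = 0.0375). With single libraries of the lines left out these counts ranged between 0 and 11 higher and between 5 and 19 lower, with 11 higher and 5 lower without At2+ replicate 1, 0 and 17 without At2+ replicate 2, and 1 and 19 without At1+ replicate 1. AtIPCS1 minus AtIPCS3 had a median of 2.69 in that order, with 68 called higher and 0 lower (70 and 0 at an unadjusted p under 0.05), where 9.71% of all genes were called higher and 6.62% lower, and psaC differed by 3.52 ± 0.49 (limma adjusted p = 2.27e-06). AtIPCS3 minus AtIPCS2 had a median of -3.29, with 0 called higher and 70 lower (0 and 73 at an unadjusted p under 0.05), where 1.23% of all genes were called higher and 4.16% lower, and psbD differed by -3.50 ± 0.44 (limma adjusted p = 2.6e-06).

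Read by the labels ++ and +, AtIPCS1 minus AtIPCS2 gave 64 members higher and 0 lower (71 and 0 at an unadjusted p under 0.05), where 3.71% of all genes were called higher and 3.03% lower. AtIPCS1 minus AtIPCS3 gave 0 higher and 33 lower (2 and 45 at an unadjusted p under 0.05), where 2.62% of all genes were called higher and 5.3% lower. AtIPCS3 minus AtIPCS2 by the labels is the contrast of the paragraph above with its sign turned, so 70 members were higher. Thus 64 calls in the AtIPCS1 and AtIPCS2 contrast rest on the direction of the labels, against 13 in the order of the transcript. edgeR and DESeq2 were not run on any of these contrasts.

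**Figure D5:**
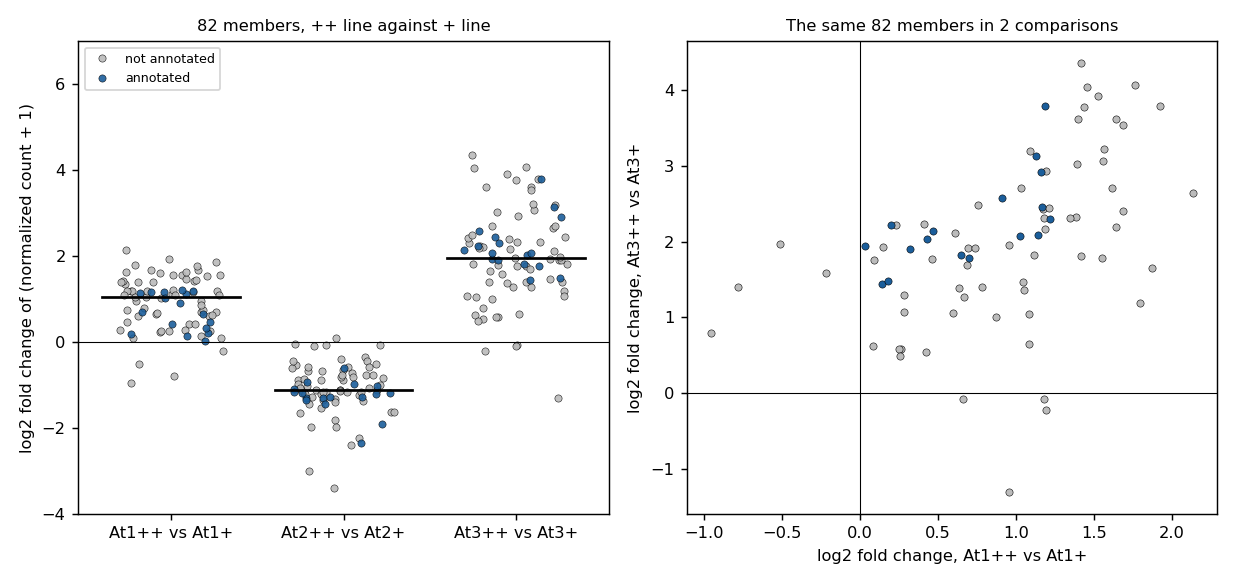
Left, log2 fold change of (normalized count + 1) of the 82 members in the ++ line against the + line of each isoform, with bars at the medians of 1.04, -1.12 and 1.96. Right, the same members in At3++ against At3+ (vertical) and At1++ against At1+ (horizontal), where most points lie above 0 on both axes.

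Over the 82 members the AtIPCS1 and AtIPCS3 comparisons had a Pearson r of 0.48 and a Spearman rho of 0.57. The AtIPCS1 and AtIPCS2 comparisons had 0.18 and 0.18, and the AtIPCS3 and AtIPCS2 comparisons -0.01 and -0.06. These describe genes within the same libraries, which are not independent, and low counts add noise to each.

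Other groups of genes were set beside the members. The 10 NDH genes, of the same genome, were called higher in 10 of 10 cases in At1++, At2++, At2+ and At3++, in 9 in At1+ and in 1 in At3+. Their median log2 fold changes, 3.53 for At1++, 2.24 for At1+, 4.11 for At2++, 5.42 for At2+, 3.43 for At3++ and 0.59 for At3+, were above the members' medians in every line. Of 37 mitochondrial genome genes, 13 were called higher for At1++, 11 for At1+, 14 for At2++, 27 for At2+, 14 for At3++ and 0 for At3+ (1 higher and 2 lower there at an unadjusted p under 0.05). Of 29 nuclear genes for partner subunits of the photosystems, cytochrome b6f, ATP synthase and Rubisco, 2 were called higher for At1++, 0 for At1+, 8 for At2++, 5 for At2+, 4 for At3++ and 0 for At3+, and 0 were called lower in any line. At an unadjusted limma p under 0.05, 7 partners were higher and 8 lower in At1+, and 10 were higher and 2 lower in At3+, while in the other lines 24 to 28 were higher and 0 lower. Their median log2 fold changes were 0.49, -0.01, 0.84, 0.68, 0.48 and 0.09 in At1++, At1+, At2++, At2+, At3++ and At3+, against medians of 2.21, 1.60, 2.76, 3.94, 2.1 and 0.34 for the members.

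Among the partners, ATPD, for the delta subunit of the chloroplast ATP synthase, was 1.55 ± 0.07 higher in At2++ (limma adjusted p = 1.15e-14), 1.24 ± 0.07 in At2+ (1.42e-12) and 1.07 ± 0.07 in At3++ (3.14e-11). RBCS1B, for a small subunit of Rubisco, was 2.13 ± 0.08 higher in At2++ (limma adjusted p = 9.19e-17), 1.81 ± 0.08 in At2+ (3.28e-15) and 1.64 ± 0.08 in At3++ (2.75e-14). In At1+ both had values below 0, at -0.31 ± 0.07 for ATPD (limma adjusted p = 0.00262) and -0.72 ± 0.08 for RBCS1B (1.5e-07), which the minimum fold left uncalled. RBCS genes are near-identical copies, so reads could be split between them.

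Markers of tissue moved with the lines as well. The summed level of 3 green tissue markers, LHCB1.3, LHCB3 and RBCS1A, ranged between 538831 and 656859 normalized counts in At1++, 420586 and 496821 in At1+, 652722 and 885550.0 in At2++, 646134 and 842273 in At2+, 498854 and 606559 in At3++, 442093 and 446062 in At3+, against 389175 and 439738 in Col-0. RBCS1A is also on the partner list. The sum of 5 root markers was 25379 to 46405 in the lines, lowest in At1+ and highest in At3++, against 22498 to 22858 in Col-0. The root sum rested mostly on BGLU23, with 21478 to 45828 normalized counts a library, and 7 of the 8 markers were above 0 in every library, while NRT2.1 was at 0 in 4 libraries of At1+ and Col-0. Both sums lay above every Col-0 library in the 4 lines with the most members called and also in At3+, where few members were called, and their part in the result was not tested.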

How the data were processed

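RNA of seedlings was sequenced as single-end libraries of a stranded mRNA kit. Per the study's methods, reads were cleaned in Trimmomatic, mapped by STAR onto the Araport 2017 genome, counted per gene by HTSeq and normalized in DESeq2. Tool versions are not given in the sources used here. The deposited signal, made by the authors, is normalized counts, that is reads divided by a library's size factor, and 100% of the values came out as whole reads within 0.01 read. The median depth was 15223423 reads on genes.

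The log2(value + 1) values were fitted with limma 3.58.1 (R 4.3.3, trended variance). The fit covered 22222 genes whose mean reached 1, p-values were adjusted over all of them by Benjamini-Hochberg, and calls needed a log2 change of 1 or more in size. Alternatives were edgeR 4.0.16 and DESeq2 1.42.0 on the recovered reads, unfiltered genes, 0.1 as the pseudocount, size factors from nuclear genes, fits on the compared libraries alone, a replicate block, no fold minimum, reads on nuclear genes as the denominator of shares, and single libraries left out. The filter of edgeR kept 79 of the 82 members, so its counts are out of 79. DESeq2 gave no adjusted p for 3 members in At1+, in At3+, in At2++ against At2+ and in At3++ against At3+. Shares were compared by exact permutation in scipy 1.17.1. The fits were tested on simulated data.

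The members and lists were chosen with earlier results of these data known. The planned rule named the 3 most abundant members of each gene class and the 3 with the highest and the 3 with the lowest median fold change among members with a mean of at least 20. No source used here pairs 65 of the 82 IDs with genes, so it could not be applied by class. The part on fold changes needed no gene names and was not followed in full. Among the lowest medians it covers, ATCG00690, at -0.33, and ATCG00560, at 0.34, are not described. ATCG00010, with a mean of 11.2, was under its minimum. Annotated members were named instead, except an item not reported here, with 4 IDs chosen after their values were seen. For lack of gene names the planned shares without psbA and rbcL were replaced, after seeing the data, by shares without the 2 most abundant members. No coordinates or sequences are given, and RefSeq's TAIR10.1 annotation served only for names and neighbours.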

Additional observations from a re-analysis of the deposited data

Results flagged for a closer look

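The difference between the paired lines was itself compared between isoforms in limma, and which contrasts differed depended on the direction of each pair. By the labels ++ minus +, 64 of the 82 members were called higher for AtIPCS1 minus AtIPCS2, against 3.71% of all genes. For AtIPCS1 minus AtIPCS3 33 were lower, against 5.3% of all genes, and for AtIPCS3 minus AtIPCS2 70 were higher, against 4.16%. The AtIPCS2 and AtIPCS3 transcripts go against those labels. With the pairs in the order of the transcript, 4 members were higher and 9 lower for AtIPCS1 minus AtIPCS2. Of all genes 8.55% were called higher and 7.93% lower there, so these counts are not read as a result about the members. In that order 68 members were higher for AtIPCS1 minus AtIPCS3, against 9.71% of all genes. For AtIPCS3 minus AtIPCS2 70 were lower, against 4.16%. Leaving out single libraries of the 6 lines gave 53 to 67, 20 to 42 and 66 to 71 by the labels, and the wide ranges of AtIPCS1 minus AtIPCS2 by transcript are given above. The 20 came without At3+ replicate 3, when the single At3+ library left is assumed to vary like the other groups.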

How the results depend on the processing

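Counts of members called stayed within 1.5 times their value with the nuclear scaling and the pseudocount of 0.1 in 18 of 18 cases each. Members higher in At3+ numbered 9 and became 0 with edgeR, 5 with DESeq2 and 22 with At2+ replicate 1 and Col-0 replicate 2 both left out, a choice made after seeing the data, which also gave 11 in place of 40 members lower in At2++ against At2+. The 1 member lower in At3++ became 0 with edgeR, DESeq2, no filter and only the libraries compared. The 1 lower in At3+ became 3 with only the libraries compared, and the 0 lower in At1++ against At1+ became 1 with no minimum fold. Without the 2 most abundant members the difference in share between At2++ and Col-0, 0.247 percentage points, was 0.213.

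With single libraries left out, members higher ranged between 1 and 15 in At3+ and between 19 and 46 in At1++ against At1+, and members lower between 10 and 57 in At2++ against At2+. Members lower ranged between 0 and 2 in At1+, and between 0 and 1 in At3+, in At3++, in At1++ against At1+ and in At3++ against At3+. The members' median moved by more than the spread between replicates in few cases, for At3++ against At3+ (1.96) to 2.21 with DESeq2 and 2.16 with the pseudocount of 0.1, and for At3++ against Col-0 (2.1) to 2.44 without Col-0 replicate 2, alone or with At2+ replicate 1. All 35 differences in the share of reads and all 210 in class shares moved by less than the spread between replicates.

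Directions turned only for differences that were not called. petB in At3+ was -0.058 with edgeR and -0.057 with DESeq2, and ranged between -0.26 and 0.30 with single libraries left out. Likewise cemA in At1+ ranged between -0.35 and 0.88, and in At1++ against At1+ psbD ranged between -0.0091 and 0.38, psbC between -0.24 and 0.17, cytochrome b559 between -0.11 and 0.34 and psbB between -0.054 and 0.35. The cause of these changes was not tested.

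The replicate block changed 1 of 18 counts, members lower in At3++, to 0, and gave -0.026 for petB in At3+. Same-numbered libraries did not deviate together (correlations -0.12 to 0.14, median -0.01, 57 pairs), so the number was not taken as a pairing. Depth limits the low members: 52 of the 82 had more than 3 reads in every library, and 9 had at most 3 in every Col-0 library, so their fold changes depend on the pseudocount.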
